A study of Mus musculus with 6 samples.

Results

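Matrix proteases and the genes that activate or inhibit them were examined in cancer-associated fibroblasts treated with decitabine. The members were the probes whose target name in the intensity table, spelled there in capitals (MMP10, PLAU, MMP11), equals one of 39 listed names. These are 14 matrix metalloproteinases (MMPs), 9 ADAMTS and 7 ADAM proteases, 5 inhibitors (Timp1 to Timp4 and Reck), 3 genes of plasminogen activation (Plau, Plaur and Plat) and Bmp1. Of the 45281 probes in the table, 73 met this rule, and they stood for 37 of the 39 genes. Adam19 and Adamts5 were not analysed here.

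The cells were cancer-associated fibroblasts, the stromal fibroblasts of a carcinoma, grown for a short time from an explant of a KPC-Brca1 mouse pancreatic tumour. KPC mice are a genetic model of pancreatic cancer, and the full genotype of this mouse was not given in the sources used here. In the treated group, 3 plates received 2 micromolar 5-aza-dC (decitabine, here DAC) for 48 hours, and 3 plates of the same culture were left untreated. Decitabine, an analogue of deoxycytidine, enters DNA as it replicates and binds DNA methyltransferases covalently, so that methylation is lost over cell divisions. Each plate was measured on 1 Illumina bead array. The plates share 1 explant, so the p-values reflect how these plates vary and nothing wider, and 3 arrays a group limit the precision.

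The MMPs are zinc proteases that cut collagens, gelatin and other matrix proteins, most of them secreted as inactive proenzymes. The ADAMs shed membrane-bound growth factors and receptors, and the ADAMTS enzymes cut proteoglycans and process procollagens. Plau (urokinase) and Plat (tissue-type activator) convert plasminogen to plasmin, which degrades fibrin and activates several pro-MMPs, and Plaur binds urokinase at the cell surface. The TIMPs and the membrane protein Reck hold these metalloproteinases in check. Fibroblasts are a main source of matrix proteases in the stroma of carcinomas.

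Between 16205 and 16528 probes were detected on the DAC arrays and between 16254 and 17180 on the untreated arrays, detected meaning a detection p under 0.01 against the array's negative controls. Correlations across the kept probes were 0.993 to 0.996 within the groups and 0.974 to 0.98 between them. Of 12 fibroblast markers, 11 were detected, and Postn was not. The 6 endothelial markers were detected on no array, and of 5 pericyte markers 3 were at background on every array. Of 8 epithelial markers, Krt7, Krt8, Krt18, Krt19 and Cldn7 were detected, while Epcam, Cdh1 and Cldn4 were not. Of the 11 tested fibroblast markers, Lum (log2 change −0.74, adjusted p = 0.000214 in limma) and Dcn (−0.28, adjusted p = 0.0457) fell, and 9 did not pass. Of the epithelial markers, Krt19 fell (−1.20, adjusted p = 9.8e-06), Krt7 rose (0.78, adjusted p = 5.51e-05) and 3 did not pass. The pericyte marker Cspg4 rose (0.81, adjusted p = 3.01e-05), and Des did not pass. The array held 18 leukocyte markers, and 10 of them, with the pan-leukocyte gene Ptprc, were below detection throughout. The summed linear intensity of the 18 was nevertheless 747 to 786 on the DAC arrays against 459.8 to 530 on the untreated arrays, and 6 of the 8 tested markers rose and none fell. The part of these marker shifts in the results below was not tested. In a culture, fewer cells of a type and less RNA per cell cannot be told apart.

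DAC changed 9 of the 28 listed genes that could be tested, in both directions. Plau and Mmp10 were 2.64-fold and 2.8-fold higher with DAC, and Plaur and Timp1 rose by smaller amounts. Mmp11, Adamts1, Adamts7, Adamts12 and Mmp2 fell. The 9 are 32.1% of the 28, against 29.2% of the 12074 genes tested (limma, adjusted p under 0.05 by Benjamini-Hochberg). Of the 28 genes, 4 were higher, or 14.3%, against 14.6% of all genes tested, and 5 were lower, or 17.9%, against 14.7%. These shares lay near the background. The members' median log2 change was −0.07, beside −0.0011 over all genes. The groups did not overlap for 5 genes with DAC above (17.9%) and 9 with DAC below (32.1%), against 21.4% and 21.3% of all genes. At least 2-fold changes were rarer. Of the 28 genes, Mmp10 and Plau were at least 2-fold higher, against 1.95% of all genes. Mmp11 alone was at least 2-fold lower, against 0.845% of all genes. The members' shares were the larger in both directions, on 3 genes in all, and this difference was not tested. Of all called genes 49.8% were higher. That share was 26% without between-array normalization and 62.6% with 75th percentile scaling.

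The remaining 9 genes did not pass the filter, which kept probes detected on at least 3 arrays. Their probes were close to background in both groups. Mmp8, Mmp9, Mmp12, Mmp19, Timp4, Adamts9 and Adam10 were detected on no array, and Mmp15 and Adam8 on 2 arrays each. Absence of the transcript does not follow from a dim probe. Mmp8, Mmp9 and Mmp12 are the collagenase, gelatinase and elastase typical of neutrophils and macrophages. The Mmp9 probe had raw intensities of 44.1, 45.6 and 49.5 on the DAC arrays, against 48.1, 45.9 and 49.8 on the untreated arrays. The Mmp12 probe had 32.6, 36.7 and 36.8 on the DAC arrays, against 38.4, 37.4 and 32.7 on the untreated arrays. No member had a probe detected on all arrays of one group and off (detection p over 0.05) on all arrays of the other, a pattern met by 0.152% of all probes with DAC and by 0.0928% without it.

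**Figure D1:**
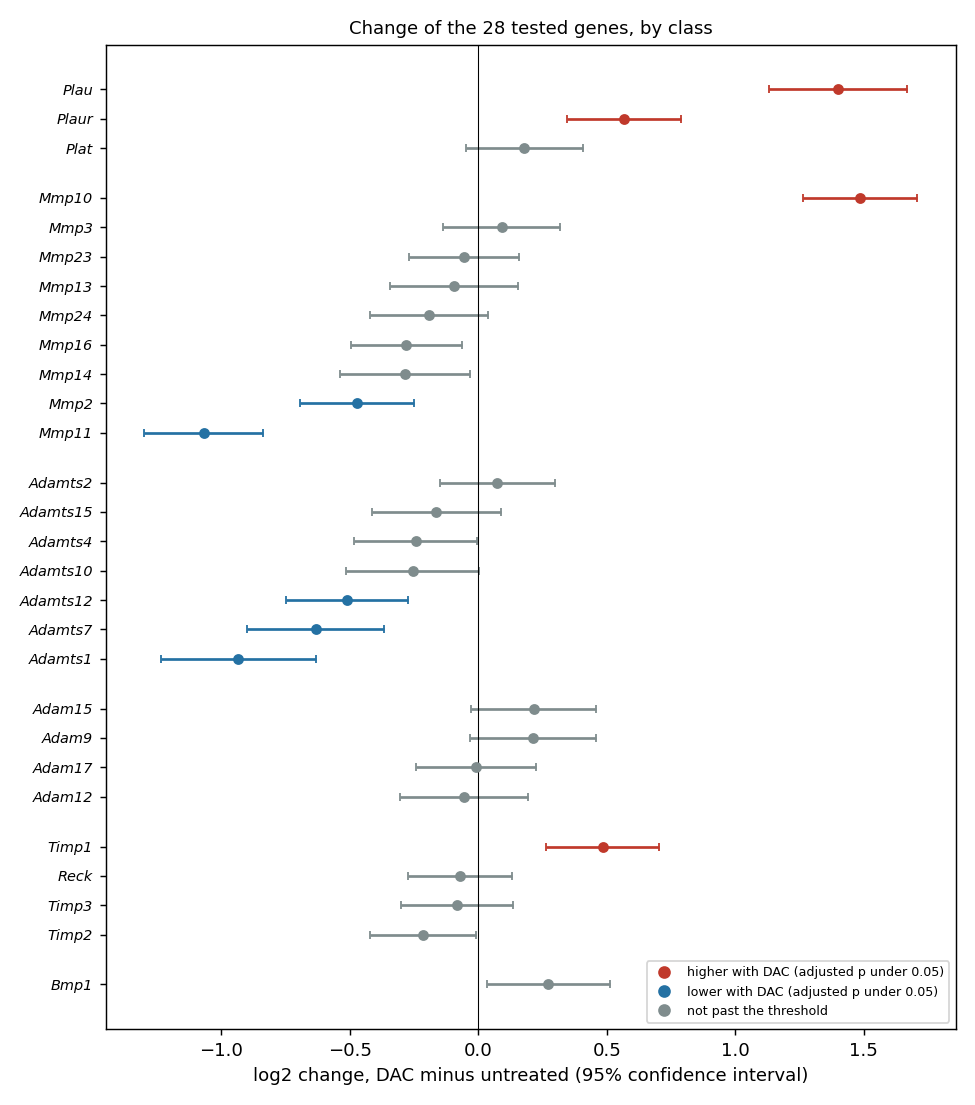
Change in log2 intensity, DAC minus untreated, of the 28 tested genes grouped by class, with 95% confidence intervals from limma (3 arrays per group). Red points were higher and blue points lower with DAC at an adjusted p under 0.05, and grey points did not pass. Plau, Plaur, Mmp10 and Timp1 lie to the right of 0, and Mmp11, Mmp2, Adamts1, Adamts7 and Adamts12 to the left.

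In the plasminogen system, 2 of 3 genes rose and none fell, against 14.6% higher and 14.7% lower over all genes. Plau encodes urokinase, the activator that works at the cell surface. Its raw intensity was 211.9, 281.4 and 295.6 on the DAC arrays, against 113.6, 137.4 and 122.8 on the untreated arrays. After normalization these were log2 intensities of 7.78, 8.02 and 8.14 with DAC, against 6.38, 6.80 and 6.56 untreated. Every DAC array lay above every untreated array, and the gap between the groups was wider than the range within either. The log2 change was 1.40 ± 0.13 (SE; adjusted p = 9.85e-07). Across the alternative settings it ran from 1.12 to 1.51 and stayed past the threshold in all 16.

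Plaur, the urokinase receptor, rose as well. Its log2 intensity was 9.40, 9.34 and 9.13 on the DAC arrays, against 8.68, 8.78 and 8.71 on the untreated arrays. The groups did not overlap, and the change of 0.57 ± 0.10 (SE) amounted to a 1.48-fold rise (adjusted p = 0.00083). Plaur is also made by macrophages. Of the leukocyte markers Cd53, Laptm5, Csf1r, Cd68, Lyz2 and Coro1a rose, Cd14 and Cd3e did not pass, and the other 10, among them Emr1, Itgam, S100a8 and S100a9, were at background; the part of these in the rise of Plaur was not tested. Plat, the tissue-type activator, had log2 intensities of 10.36, 10.38 and 10.40 with DAC and 10.01, 10.28 and 10.31 untreated. Its DAC arrays lay just above the untreated ones, but the change of 0.18 (95% confidence interval −0.05 to 0.41) did not pass (adjusted p = 0.221). Of 3 Plat probes, 1 passed the filter.

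**Figure D2:**
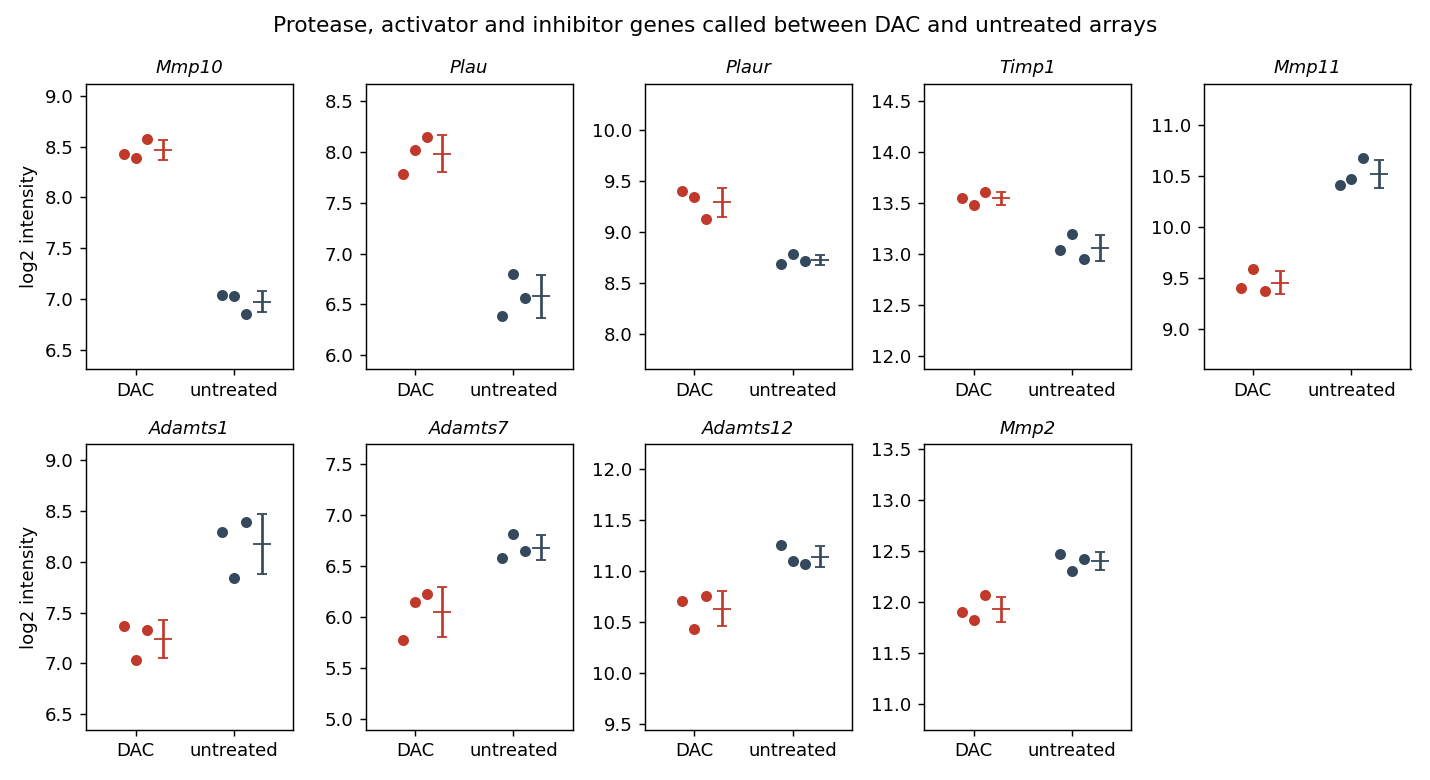
Log2 intensity of the 9 genes called between the groups, 1 point per array, with the mean and SD (n = 3) beside the points; all panels span the same number of log2 units, and levels of different genes are not comparable. In each panel the 3 DAC arrays (left) and the 3 untreated arrays (right) do not overlap.

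Among the 9 tested MMPs, 1 rose (11.1%) and 2 fell (22.2%), against 14.6% and 14.7% of all genes, and their median log2 change was −0.19. Mmp10 (stromelysin-2), which cuts proteoglycans and fibronectin and activates procollagenases, rose most. Its raw intensity was 321.6, 360.4 and 393.6 on the DAC arrays, against 165.8, 157.9 and 146.1 on the untreated arrays. The log2 intensities were 8.43, 8.39 and 8.58 with DAC and 7.05, 7.03 and 6.86 untreated, with no overlap. The log2 change of 1.49 ± 0.10 (SE; adjusted p = 5.96e-08) stayed between 1.26 and 1.52 under all 16 alternatives. By absolute change Mmp10 ranked 119 and Plau 143 among the 12074 genes.

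Mmp10 belongs to a cluster of Mmp genes on chromosome 9, where the gene order of the reference places Mmp13, Mmp12, Mmp1b, Mmp3, Mmp1a, Mmp10, Mmp8, Mmp27, Mmp20 and Mmp7 in a row. Of the tested genes there, Mmp10 alone was called. Mmp3 (stromelysin-1), the enzyme most like Mmp10, had log2 intensities of 8.26, 8.10 and 8.38 on the DAC arrays, against 8.06, 8.15 and 8.25 on the untreated arrays, which overlap. Its change was 0.09 (95% confidence interval −0.14 to 0.32; adjusted p = 0.561). The other 2 Mmp3 probes gave larger changes, 0.25 and 0.36, and also missed the threshold (adjusted p = 0.127 and 0.0634 over all kept probes). Mmp13, the main interstitial collagenase of mouse fibroblasts, had 7.98, 7.68 and 7.95 with DAC and 8.12, 7.97 and 7.80 untreated, a change of −0.09 (−0.34 to 0.15; adjusted p = 0.586). Mmp12 and Mmp8 lay at background. Of the neighbours outside the list, Mmp1a changed by −0.05 (adjusted p = 0.812), and Mmp1b, Mmp7, Mmp20 and Mmp27 were detected on no array. The differences between these genes were not tested.

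**Figure D3:**
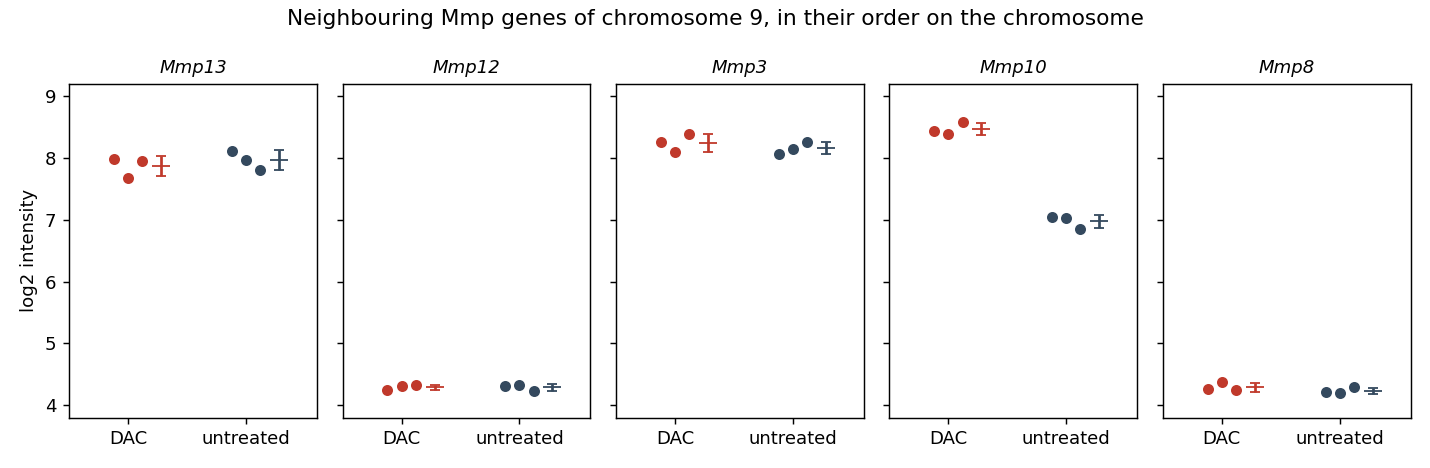
Log2 intensity of the 5 listed Mmp genes that neighbour each other on mouse chromosome 9, in chromosomal order, 1 point per array with mean and SD (n = 3 per group). The 3 DAC arrays of Mmp10 (8.39 to 8.58) lie above its 3 untreated arrays (6.86 to 7.05), the groups of Mmp13 and Mmp3 overlap, and Mmp12 and Mmp8 sit at background; levels of different probes are not comparable.

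The promoters of this cluster are shown because several hold the same letters, while Mmp10 alone of its genes was called. RefSeq promoter windows (GRCm38.p6), 250 bases before to 50 after the start, were at hand for 24 of the 37 genes, 26 windows in all. For AP-1, the Fos and Jun dimer that drives many MMP genes, the letters TGANTCA, with N any base, were searched on both strands. They occurred in 5 of the 26 windows (19.2%), namely those of Mmp10, Mmp3, Mmp13 and Plaur and 1 of the 2 of Mmp12, and in 7.81% of all 32851 windows of the table. Within the cluster 4 of 6 windows held them, and the Mmp8 window and the other Mmp12 window did not. Below, the strand of the gene is given 5′ to 3′ for the 150 bases from 100 before to 50 after the start, all on the plus strand, with the AP-1 letters in capitals. The windows are chr9:7502242-7502391 for Mmp10, chr9:7445722-7445871 for Mmp3, chr9:7272414-7272563 for Mmp13 and chr7:24462383-24462532 for Plaur.
Mmp10: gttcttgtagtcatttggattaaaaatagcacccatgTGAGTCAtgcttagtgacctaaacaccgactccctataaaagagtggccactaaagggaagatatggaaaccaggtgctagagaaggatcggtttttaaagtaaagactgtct
Mmp3: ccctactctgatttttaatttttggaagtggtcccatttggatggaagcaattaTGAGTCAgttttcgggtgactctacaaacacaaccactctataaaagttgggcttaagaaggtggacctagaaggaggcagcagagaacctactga
Mmp13: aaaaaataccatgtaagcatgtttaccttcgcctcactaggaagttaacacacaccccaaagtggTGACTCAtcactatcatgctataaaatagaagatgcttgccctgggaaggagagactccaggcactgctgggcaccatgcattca
Plaur: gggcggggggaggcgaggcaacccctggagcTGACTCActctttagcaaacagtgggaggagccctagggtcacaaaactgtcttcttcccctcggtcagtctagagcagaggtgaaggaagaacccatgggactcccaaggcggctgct

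The AP-1 letters began 63 bases before the start in Mmp10, 46 in Mmp3, 35 in Mmp13 and 69 in Plaur. Mmp10 and Mmp3 carried TGAGTCA, and Mmp13 and Plaur carried TGACTCA. Mmp10 and Plaur rose with DAC, while Mmp3 and Mmp13 did not pass the test, so the letters were present in windows of both kinds. The window of Timp1, which also rose, did not hold them, nor did those of Mmp11, Adamts1 and Adamts12, which fell. No window was at hand for the called genes Plau, Mmp2 and Adamts7. The ETS core letters CAGGAA, searched likewise, occurred in 10 of the 26 windows (38.5%) and in 30.6% of all windows. They were absent from the window of Mmp10 and present in that of Mmp3, and no AP-1 match overlapped an ETS match.

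The windows of the cluster also held few CG dinucleotides, the sites of DNA methylation. Mmp10 had 2 in its 300 bases, Mmp3 and Mmp13 had 1 each, and 5 of the 6 cluster windows had at most 3, against 31.4% of all windows. The 20 windows of the other members had a median of 22.5, against 7 over all windows. Mmp11, the MMP with the largest fall, had 19 CG in its window. Of the other called members with a window, Plaur and Timp1, which rose, had 7 and 8. Adamts12 and Adamts1, which fell, had 7 and 18. The windows of the members not called had a median of 23.5. A link between the number of CG and the direction of change was not tested. The 150 bases around the start of Mmp11, chr10:75932453-75932602 on the minus strand (GRCm38.p6), are shown with CG in capitals and hold 16 of them.
Mmp11: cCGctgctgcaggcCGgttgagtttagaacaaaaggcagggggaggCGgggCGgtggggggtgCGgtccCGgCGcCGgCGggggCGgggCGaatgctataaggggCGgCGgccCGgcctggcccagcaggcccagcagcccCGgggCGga

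Mmp11 (stromelysin-3), first described as a product of the fibroblasts around breast carcinomas, fell 2.1-fold. Its raw intensity was 621.5, 811.6 and 679.4 on the DAC arrays, against 1444, 1488.5 and 1635.8 on the untreated arrays. The log2 intensities were 9.40, 9.59 and 9.38 with DAC and 10.42, 10.47 and 10.68 untreated, without overlap. The log2 change was −1.07 ± 0.11 (SE; adjusted p = 3.31e-06) and stayed between −1.14 and −0.96 in all 16 alternatives.

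Mmp2, gelatinase A, fell 1.39-fold. It had log2 intensities of 11.90, 11.82 and 12.07 with DAC and 12.47, 12.30 and 12.43 untreated, again without overlap, and its change was −0.47 ± 0.10 (SE; adjusted p = 0.00334). With 75th percentile scaling the change was −0.27 and the call ended (adjusted p = 0.0606). Mmp14 (MT1-MMP), the membrane-bound activator of pro-Mmp2, had 12.78, 12.50 and 12.38 with DAC and 12.95, 12.70 and 12.86 untreated. The groups overlapped, and the change of −0.28 did not pass (95% confidence interval −0.54 to −0.03; adjusted p = 0.086). It was −0.40 and past the threshold without DAC replicate 1 (adjusted p = 0.0273), and −0.09 with 75th percentile scaling (adjusted p = 0.6).

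Of the other membrane-type MMPs, Mmp16 had 6.74, 6.67 and 6.82 with DAC and 7.01, 7.14 and 6.93 untreated. Its groups did not overlap and its change of −0.28 lay just outside the threshold (adjusted p = 0.0505), which it passed under 4 of 16 alternatives. Mmp24 changed by −0.19 (−0.42 to 0.04) and Mmp23, an MMP whose active form is released from the membrane, by −0.05 (−0.27 to 0.16). All 3 missed the threshold, and their intervals leave room for changes of up to about the size of the fall of Mmp2 for Mmp16 and Mmp24.

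The ADAMTS group held 3 falls and no rise among 7 tested genes, with a median log2 change of −0.25. The falls made up 42.9% of the group, against 14.7% of all genes. The same 3 genes were called lower under each scaling tried, with Adamts4 and Adamts10 also called lower without between-array normalization (both −0.39; adjusted p = 0.018 and 0.0285) and Adamts2 called higher with 75th percentile scaling. Adamts1, which cuts the proteoglycans aggrecan and versican, had log2 intensities of 7.37, 7.03 and 7.32 on the DAC arrays, against 8.29, 7.84 and 8.39 on the untreated arrays. The groups were apart although untreated replicate 2 was low. The log2 change was −0.93 ± 0.14 (SE), a 1.91-fold fall (adjusted p = 0.000156). Adamts7, which cuts cartilage oligomeric matrix protein, had 5.77, 6.15 and 6.23 with DAC and 6.58, 6.82 and 6.65 untreated. It fell 1.55-fold (log2 change −0.63 ± 0.12, SE; adjusted p = 0.00145), without overlap. Adamts12, of the same subfamily as Adamts7, had 10.71, 10.43 and 10.76 with DAC and 11.26, 11.10 and 11.07 untreated. It fell 1.43-fold (log2 change −0.51 ± 0.11, SE; adjusted p = 0.00304).

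The other 4 tested ADAMTS genes did not pass. Adamts4, an aggrecanase, changed by −0.24 (adjusted p = 0.118), Adamts10 by −0.25 (adjusted p = 0.131; −0.38 and called without DAC replicate 2) and Adamts15 by −0.16 (adjusted p = 0.321). Adamts15 was detected on 1 of 3 DAC arrays and on all 3 untreated arrays. Adamts2, the procollagen N-proteinase that trims fibrillar collagens, changed by 0.07 at its brightest probe (95% confidence interval −0.15 to 0.30). Its 3 probes disagreed. The dimmest had log2 intensities of 8.99, 8.85 and 9.02 with DAC and 8.77, 8.59 and 8.28 untreated and was called higher (0.40 ± 0.12, SE; adjusted p = 0.0273). The middle probe changed by −0.19 (adjusted p = 0.168).

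None of the 4 tested ADAM genes passed the test in limma, against 29.2% of all genes called in either direction. Their changes ran from −0.06 to 0.22. Adam17, the sheddase of tumour necrosis factor and of EGF receptor ligands, had 8.51, 8.41 and 8.62 with DAC and 8.68, 8.52 and 8.37 untreated at its brighter probe, a change of −0.01 (−0.24 to 0.22). Its dimmer probe had 6.25, 6.35 and 6.34 with DAC and 6.70, 6.62 and 6.63 untreated, without overlap, and was called lower (−0.33 ± 0.10, SE; adjusted p = 0.0195). Adam9 and Adam15 changed by 0.21 and 0.22 and Adam12 by −0.06. Both probes of Adam10, the sheddase of Notch, lay at background, so nothing can be said of its change. The best probe of Adam8 had 5.12, 5.02 and 4.94 with DAC and 4.60, 4.66 and 4.65 untreated. It was detected on 2 DAC arrays and on no untreated array, and it did not enter the test. The bound was 1.07-fold, but its DAC mean includes replicate 3, where the probe was not detected, so no minimum change follows. The other Adam8 probes were detected on no array. With no filter the best probe was called higher (adjusted p = 0.00905).

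Among the inhibitors, 1 of 4 tested genes rose (25%) and none fell, against 14.6% and 14.7% of all genes. Timp1, the inducible inhibitor, had log2 intensities of 13.55, 13.48 and 13.61 on the DAC arrays, against 13.04, 13.20 and 12.95 on the untreated arrays. The groups did not overlap, and the rise was 1.4-fold (log2 change 0.48 ± 0.10, SE; adjusted p = 0.00253). Its other probe had 13.50, 13.52 and 13.61 with DAC and 13.08, 13.04 and 12.88 untreated, and was called as well (0.55; adjusted p = 0.00123 over all kept probes). Timp2, which takes part in the activation of pro-Mmp2 by Mmp14 besides inhibiting MMPs, had 13.16, 13.22 and 13.22 with DAC and 13.42, 13.33 and 13.48 untreated. Those arrays did not overlap, yet the change of −0.21 (−0.42 to −0.01) did not pass (adjusted p = 0.113), although it did under 2 of 16 alternatives. With 75th percentile scaling the Timp2 change was 0.04 (adjusted p = 0.795). Timp3, the inhibitor bound to the matrix, changed by −0.08 (−0.30 to 0.14), and its second kept probe by −0.04. Reck changed by −0.07 and 0.08 at its 2 probes, neither past the threshold.

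Bmp1, the procollagen C-proteinase, had 11.56, 11.21 and 11.39 with DAC and 11.24, 11.05 and 11.05 untreated at its brightest probe, a change of 0.27 that did not pass (adjusted p = 0.0816). It passed under 6 of 16 alternatives, among them that without DAC replicate 2 (0.36; adjusted p = 0.0294), and changed by −0.02 with the mean of its probes. Its other 3 probes changed by −0.17 to −0.09. Whether its probes, or those of Adamts2 and Adam17, differed from each other was not tested. With all 41 kept probes of the list tested singly, 6 were higher (14.6% of them, against 13.1% of all kept probes) and 6 lower (14.6%, against 14.5%). The 12 were the 10 of the called genes, 2 of them for Timp1, and the single probes of Adamts2 and Adam17.

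**Figure D4:**
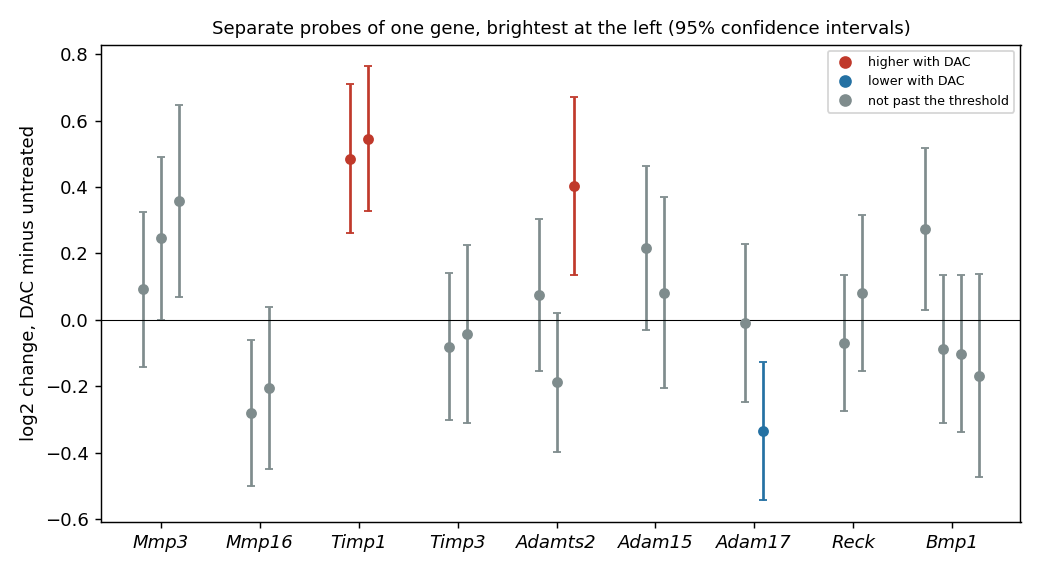
Log2 change, DAC minus untreated, of each kept probe of the 9 genes with more than 1 kept probe, with 95% confidence intervals (3 arrays per group, brightest probe at the left). Both Timp1 probes are higher with DAC, while 1 of 3 Adamts2 probes is higher, 1 of 2 Adam17 probes is lower and the 4 Bmp1 probes lie on both sides of 0.

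Other genes linked to proteolysis at or near the cell surface, among them cathepsins and genes that are not proteases, also moved both ways. Of 69 such genes outside the list, 67 were on the array and 29 were tested. Of these, 6 were higher and 8 lower with DAC, larger shares than the 14.6% and 14.7% of all genes tested. That difference was not tested, and the median log2 change was −0.01. Pcsk6, a proprotein convertase that cuts proenzymes and growth factor precursors, fell 2.38-fold (log2 intensity 8.12 ± 0.11 with DAC and 9.38 ± 0.02 untreated, SD, n = 3; adjusted p = 2.48e-07). Dpp4, a dipeptidyl peptidase of the cell surface, fell 2-fold (adjusted p = 2.93e-06). Adamtsl1 was detected on no DAC array and was at least 1.43-fold lower. Adamtsl5 rose 1.64-fold and Mmp17, a membrane-type MMP, 1.43-fold (adjusted p = 0.000297 and 0.00224). S100a10, a plasminogen-binding partner of Anxa2 at the cell surface, rose 1.43-fold (adjusted p = 0.00607), while Anxa2 itself changed by −0.01 (adjusted p = 0.936). Plg, the gene of plasminogen itself, was detected on no array.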

How the data were processed

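The authors' deposited table gave, per the file headers, for 45281 probes on 6 arrays, a mean bead intensity, its detection p-value, the standard error of that signal over the beads and how many beads there were. From the values, the intensity had been neither normalized nor corrected for background. Per the labels' protocols, RNA was taken with Trizol and biotinylated cRNA was prepared with an Ambion kit. No scanner software or annotation build was given in the sources used here. A further deposited table of values was not used, since its probe identifiers are not those of the first. Kept probes of the members had 19 to 85 beads per array, and their bead standard error was at most 10.3% of the intensity.

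The normexp background correction took its parameters from the detection p-values. An offset of 16 and quantile normalization followed, all in limma 3.58.1 (R 4.3.3), and values are log2. A probe was kept where 3 or more arrays had a detection p under 0.01, which left 16883. A gene was its brightest kept probe, under the target name of the table. DAC and untreated arrays were compared with lmFit and eBayes, with Benjamini-Hochberg adjustment over all 12074 genes or all 16883 probes. A bound sets the brighter group's mean against the higher of the dim probe's own signal and the lowest detected signal of each array. By rule, values by array are given for every called member, and of the other proteolysis genes the 6 called with the largest changes are named. Further genes so treated were picked with their values in view. The members and lists were chosen with earlier results of these data known. Alternatives covered background, offset, normalization, filter, probe choice, variance model, replicate number as a block, and each array left out, with its values renormalized and the probes kept as before. Promoter windows came from RefSeq (GRCm38.p6).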

Additional observations from a re-analysis of the deposited data

How the results depend on the processing

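Each tested gene had 16 alternatives, except Adamts15 with 15, since it was not detected on all 6 arrays. Mmp10, Plau, Plaur, Timp1, Mmp11, Adamts1, Adamts7 and Adamts12 kept their direction and their call in all, and Mmp2 in 15. Without between-array normalization, 8 of the members were lower in place of 5 and 10 of their probes in place of 6, and over all genes 1007 were higher and 2870 lower in place of 1758 and 1772. The log2 changes then had a median of −0.115 over all genes and −0.184 over the members. The members called only under some alternatives were Bmp1 (6 of 16, all higher), Mmp16 (4, lower), Mmp14 (3, lower), Adamts10 and Timp2 (2 each, lower), and Adamts4 (1, lower) and Adamts2 (1, higher). Without DAC replicate 2, Bmp1 (0.36; adjusted p = 0.0294) and Adamts10 (−0.38; adjusted p = 0.0198) were called, and without DAC replicate 1 Mmp14 was (−0.40; adjusted p = 0.0273). With the mean of its 4 probes Bmp1 changed by −0.02. With the replicate number as a replicate block, 5 members were higher and 7 lower, and 2080 and 2095 of all genes. The numbers were not taken as pairs. The deviations of same-numbered plates from their group means correlated at 0.311, 0.309 and −0.0298 for replicates 1, 2 and 3. Those of replicates 1 and 2 were above every value between differently numbered plates (−0.394 to 0.161). DAC replicate 3 correlated best with untreated replicate 1 (0.161). Adam8 entered the test without the filter on dim probes and was then called higher (0.39; adjusted p = 0.00905), as also with a filter at a detection p of 0.05 (adjusted p = 0.00848). Leaving out each array in turn, 4 to 5 members were higher and 5 to 6 lower, as were 5 to 9 and 5 to 7 of their probes, with 9 higher without DAC replicate 2. Over all genes, 1373 to 1683 were then higher and 1451 to 1687 lower, in place of 1758 and 1772. No member probe was detected on all 3 arrays of one group and off on all 3 of the other at any of the 3 pairs of detection thresholds. Signal over background limits the 26 member probes detected on no array, for which no change could be measured.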
